A study of Homo sapiens with 12 samples.

Results

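Metallothionein genes and the zinc exporter gene SLC30A1 were followed in 12 RNA samples of MDA-MB-231 cells grown in Matrigel. The rows were chosen by symbol from the table of 63568 gene identifiers, and all 7 symbols (MT1E, MT1F, MT1G, MT1M, MT1X, MT2A and SLC30A1) matched a row. MDA-MB-231 is a human triple negative breast cancer cell line with mesenchymal features, and Matrigel is a basement membrane extract that forms a soft scaffold around the cells. Untreated cells were taken on day 2 (C1) or day 4 (C2), and treated cells received Paclitaxel at 0.0005, 0.005, 0.05 or 0.5 μM on day 2 and were taken on day 4, with 2 samples in each of the 6 conditions. The day of treatment is that of the sample labels, whereas the study's methods give, for the imaged cultures whose procedure was repeated here, a day after these samples were taken, so the exposure time rests on the labels alone. Paclitaxel stabilizes microtubules and blocks cells in mitosis. C2 is the control of the same day as the treated cells, whereas C1 and C2 differ in days of culture, and all samples come from a single cell line freed from Matrigel with collagenase and dispase before RNA extraction. Total counts ran from 38380629 (C1, replicate 2) to 79169121 (C1, replicate 1).

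Metallothioneins are very small proteins in which cysteines bind zinc, copper and cadmium ions. Their genes lie in a cluster and are switched on by metal ions through MTF1, a zinc-sensing transcription factor that binds metal response elements (MRE) in promoters, and they also respond to glucocorticoids and oxidative stress. SLC30A1 (ZnT1) exports zinc across the plasma membrane and is a target of MTF1 as well, so that its mRNA and those of the metallothioneins are commonly read together as a sign of the zinc that is free in the cell. Levels are given below as CPM, a gene's counts relative to the size of its library after TMM scaling for composition, and changes as log2 fold with the standard error (SE) of edgeR's quasi-likelihood test. A gene was called when its p-value, adjusted over all tested genes by the Benjamini-Hochberg method, was under 0.05.

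The 6 metallothionein members lie within one stretch of chromosome 16 (GRCh37, the build of the counts, with GENCODE 44 annotation). MT2A is at chr16:56642496-56643409, MT1E at chr16:56659387-56661024, MT1M at chr16:56666571-56667893, MT1F at chr16:56691643-56694610 and MT1X at chr16:56716382-56718108, all on the plus strand, and MT1G is at chr16:56700642-56701977 on the minus strand. Each has 3 exons and a transcript of 398 to 704 nt. SLC30A1 is at chr1:211744910-211752503 on the minus strand, with 2 exons and a transcript of 5893 nt. The coding sequences of the 3 most highly expressed metallothioneins are shown because the family is told apart by few bases. They were read from GRCh37 without the stop codon, and capitals mark the cysteine codons in frame.
MT2A: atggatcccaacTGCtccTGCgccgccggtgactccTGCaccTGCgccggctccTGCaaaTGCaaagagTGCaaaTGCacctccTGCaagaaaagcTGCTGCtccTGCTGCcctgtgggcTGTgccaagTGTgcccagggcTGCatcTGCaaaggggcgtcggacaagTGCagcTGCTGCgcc
MT1E: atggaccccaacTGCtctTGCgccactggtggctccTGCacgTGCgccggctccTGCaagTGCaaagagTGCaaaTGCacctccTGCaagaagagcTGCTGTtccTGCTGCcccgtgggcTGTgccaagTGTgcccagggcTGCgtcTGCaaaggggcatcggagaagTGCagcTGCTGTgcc
MT1X: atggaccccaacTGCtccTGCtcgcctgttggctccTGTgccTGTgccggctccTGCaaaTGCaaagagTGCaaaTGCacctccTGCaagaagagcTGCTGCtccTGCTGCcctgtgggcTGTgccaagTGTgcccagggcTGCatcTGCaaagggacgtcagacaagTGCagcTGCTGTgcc
All 6 members carried 20 cysteine codons, in 61 codons (62 in MT1G). Among the 5 members with a coding length of 183 nt, identity ran from 88.5% (MT1F and MT1X, 21 differing bases) to 92.3% (MT1X and MT2A, 14 differing bases). Reads were sequenced to 100 bases from both ends and only unique alignments were kept. No stretch of 100 nt in a member's transcript occurred unchanged in another transcript of the family, whereas 19.9% of the 50 nt stretches of MT1G, 18.0% of MT1X, 10.2% of MT2A and 4.58% of MT1E did and reads trimmed to such lengths could be discarded. Exons of MT1X also overlap another identifier, which held at most 1 count in any sample, and how reads on such exons were counted is not given in the sources used here.

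Promoter windows were available for MT2A, MT1X and SLC30A1 (RefSeq, GRCh38.p14, 250 bases before to 50 after the start). The 250 bases before the start are shown, 5′ to 3′ on the strand of the gene, because MRE are the feature the members are known for. Capitals mark the MRE core, TGCACNC or TGCGCNC on either strand. The positions are chr16:56608334-56608583 on the plus strand for MT2A, chr16:56682220-56682469 on the plus strand for MT1X and chr1:211579162-211579411 on the minus strand for SLC30A1.
MT2A: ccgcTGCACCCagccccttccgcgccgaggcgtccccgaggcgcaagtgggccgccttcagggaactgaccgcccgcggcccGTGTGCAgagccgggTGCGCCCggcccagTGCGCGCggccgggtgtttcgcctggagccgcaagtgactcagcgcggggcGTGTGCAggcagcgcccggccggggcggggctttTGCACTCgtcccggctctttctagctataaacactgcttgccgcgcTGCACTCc
MT1X: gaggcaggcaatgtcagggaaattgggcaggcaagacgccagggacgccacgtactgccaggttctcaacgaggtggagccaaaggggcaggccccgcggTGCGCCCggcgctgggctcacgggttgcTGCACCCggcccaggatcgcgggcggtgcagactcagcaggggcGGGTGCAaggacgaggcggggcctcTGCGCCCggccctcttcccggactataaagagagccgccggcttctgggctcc
SLC30A1: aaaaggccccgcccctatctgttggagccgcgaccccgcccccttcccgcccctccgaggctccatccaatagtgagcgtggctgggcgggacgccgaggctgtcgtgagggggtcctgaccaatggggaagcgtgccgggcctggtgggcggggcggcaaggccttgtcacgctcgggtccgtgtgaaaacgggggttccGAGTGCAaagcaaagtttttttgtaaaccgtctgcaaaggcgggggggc
MT2A had 8 MRE cores in its 300-base window, 7 of them in the bases shown, MT1X had 4 and SLC30A1 had 2. Of 27305 promoter windows 29.35% held at least 1 MRE core, 8.59% held at least as many as SLC30A1, 0.593% as many as MT1X and 0.022% as many as MT2A. Each of the 3 windows had 1 antioxidant response element core (TGACNNNGC) on either strand, found in 13.6% of all windows, and 3 hypoxia response element cores (ACGTG or GCGTG on either strand), and 10.2% of all windows held at least 3 of the latter. In MT2A some of these overlapped an MRE core. These are matches of letters and were not tested for binding.

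**Figure D1:**
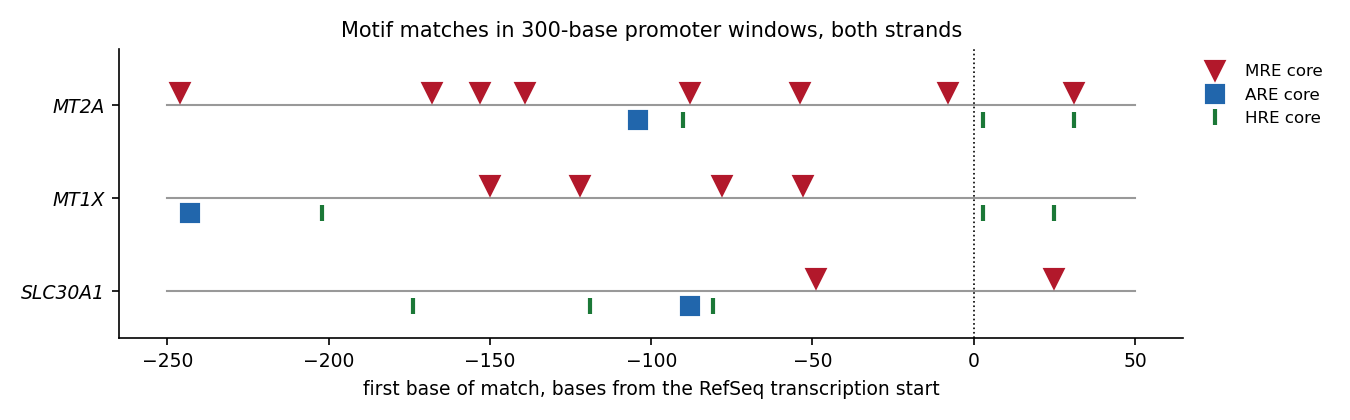
Position of each motif match (symbols, either strand) along the 300-base promoter windows of MT2A, MT1X and SLC30A1, in bases from the RefSeq transcription start. MT2A has 8 MRE cores spread over the window, MT1X 4 between -150 and -53, and SLC30A1 2, one on each side of the start.

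MT2A made up most of the metallothionein mRNA. Per length of transcript, its mean level over the 12 samples was 1673 CPM per kb, followed by MT1E with 312 CPM per kb, MT1X with 109.9 CPM per kb and MT1F with 12.9 CPM per kb. SLC30A1, the only member that is a transporter, was at 7.51 CPM per kb, MT1G at 0.357 and MT1M at 0.0412 CPM per kb. MT2A held between 65.5% and 75.1% of the counts of the 6 metallothioneins in every sample. MT1M had 14 counts in all 12 samples together, with 0 in 3 of them (a count of 0 allows up to 0.0895 CPM in C1 replicate 2, 0.0421 CPM in 0.05 μM replicate 1 and 0.045 CPM in 0.5 μM replicate 1, counting error only). MT1M did not pass the filter on low counts, so 6 of the 7 members were tested.

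MT2A, the main metallothionein of most human cells, showed no change with Paclitaxel beyond its spread. It measured 632 and 1069 CPM in C1, 481 and 675 CPM in C2, 551 and 868 CPM at 0.0005 μM, 589 and 574 CPM at 0.005 μM, 646 and 560 CPM at 0.05 μM, and 640 and 763 CPM at 0.5 μM. The highest sample was C1 replicate 2, the lowest C2 replicate 1, and every dose overlapped the range of the 4 untreated samples. Against C2 the log2 fold of MT2A lay between 0.01 (SE 0.27) at 0.005 μM and 0.30 (SE 0.27) at 0.0005 μM. In bulk RNA, a change in the number of expressing cells and a change in RNA per cell cannot be told apart.

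MT1E, the second most abundant member and an isoform of the MT1 branch, also stayed within its spread. It was at 183 and 348 CPM in C1, 159 and 203 CPM in C2, 223 and 258 CPM at 0.0005 μM, 215 and 229 CPM at 0.005 μM, 227 and 161 CPM at 0.05 μM and 211 and 220 CPM at 0.5 μM. In 7 of 8 treated samples it was above both C2 samples, the exception being 0.05 μM replicate 2, and all treated samples lay inside the range of the untreated ones. Its log2 fold for all doses against C2 was 0.26 (SE 0.21, adjusted p = 0.465). It was 0.099 without C2 replicate 1 and 0.44 without C2 replicate 2. A permutation test of the 8 treated against the 2 C2 samples gave an exact two-sided p of 0.0889. Such tests were run on 6 members against C2 and against all untreated samples, and 4 of these 12 had an exact p under 0.05. They were not run on other genes, so this count has no share over all genes beside it. By edgeR, 24.5% of all genes were called for 8 treated against 4 untreated samples and 9.74% for all doses against C2.

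MT1X was the member that varied most with dose. This MT1 isoform is known for being expressed in many cell types. It measured 22.2 and 45.6 CPM in C1 and 28.2 and 42.9 CPM in C2. It measured 61.2 and 72.2 CPM at 0.0005 μM, 47.2 and 50.4 CPM at 0.005 μM, 42.5 and 37.1 CPM at 0.05 μM and 38.3 and 44.9 CPM at 0.5 μM. Both samples of the lowest dose were above all 10 others, both samples of 0.005 μM were above all untreated samples, and the samples of the 2 higher doses overlapped with those of C2. The share of all genes with such patterns is not given here. In order of mean level the conditions ran 0.0005 μM (66.7 ± 7.77 CPM, SD, n = 2), 0.005 μM (48.8 ± 2.28 CPM), 0.5 μM (41.6 ± 4.70 CPM), 0.05 μM (39.8 ± 3.76 CPM), C2 (35.5 ± 10.4 CPM) and C1 (33.9 ± 16.5 CPM). Among neighbours in that order only 0.0005 and 0.005 μM, and 0.005 and 0.5 μM, did not overlap.

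Within the 8 treated samples MT1X fell with dose, by 0.23 on the log2 scale for each 10-fold step (SE 0.05, adjusted p = 0.0172). It was the 1 member called of 6 tested for this slope, against 3.15% of all 25057 genes tested (2.11% lower), and DESeq2 gave an adjusted p of 0.000427. The adjusted p ranged from 4.18e-06 to 0.120 over 15 alternatives. The call was lost without either sample of the lowest dose. Without its replicate 1 the slope was -0.24 (adjusted p = 0.120), no smaller than with all samples, while the number of all genes called fell from 789 to 123. Without its replicate 2 the slope was -0.18 (adjusted p = 0.0824). The direct comparison of 0.5 with 0.0005 μM gave a log2 fold of -0.68 (SE 0.28, adjusted p = 0.291 by edgeR, from 0.00514 to 0.960 over 21 alternatives with a call in 5), and no member was called there (0.412% of all genes were, 1 member had an unadjusted p under 0.05, and DESeq2 called 0 members).

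Against C2, MT1X was 1.88 times as high at 0.0005 μM (log2 fold 0.91, SE 0.28, 95% interval 0.30 to 1.52) but missed the threshold (adjusted p = 0.123). No member was called at this dose by edgeR, where 2.34% of all 25249 genes were. By unadjusted p 1 member was under 0.05, and DESeq2 called 1, both times MT1X (DESeq2 adjusted p = 0.0414). The shares of all genes under these criteria are not given here. The C1 samples are not part of this contrast but enter the spread of the fit. Without C1 replicate 1 the adjusted p was 0.00144, without C1 replicate 2 it was 0.00207, and without both it was 0.00287, each at a log2 fold of 0.91. Over 22 alternatives the log2 fold ran from 0.64 to 1.24 and the adjusted p from 0.000114 to 0.516, with a call in 7. At the other doses the log2 fold of MT1X was 0.46 (SE 0.28) at 0.005 μM, 0.16 (SE 0.28) at 0.05 μM and 0.23 (SE 0.28) at 0.5 μM. The value at 0.005 μM was 0.19 without C2 replicate 1 and 0.78 without C2 replicate 2, and was called in neither.

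MT1X also took a different share of the metallothionein counts by condition, a quantity that does not depend on how libraries are scaled. The share was 2.63% and 3.10% in C1 and 4.19% and 4.63% in C2. It was 7.28% and 5.99% at 0.0005 μM, 5.51% and 5.87% at 0.005 μM, 4.61% and 4.87% at 0.05 μM, and 4.28% and 4.34% at 0.5 μM. The 95% Wilson intervals of single samples were narrow, from 2.51% to 2.77% in the lowest sample and from 7.08% to 7.48% in the highest, and cover counting error only. Both C1 samples were below all others, and the 4 samples of the 2 lower doses were above the other 8. The share was not tested.

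**Figure D2:**
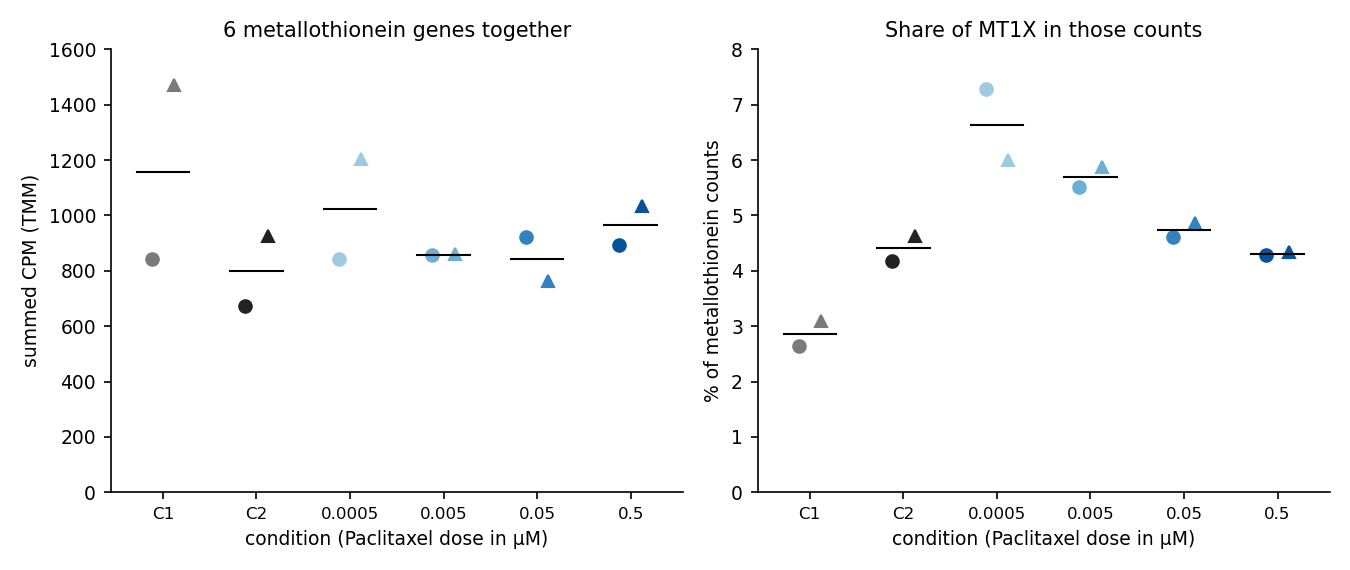
Left, summed CPM of the 6 metallothionein members in each sample; right, percent of their counts that came from MT1X. Circles are replicate 1, triangles replicate 2 and bars the mean of 2 samples. The summed level lies between 673 and 1470 CPM with overlapping conditions, while the MT1X share falls from 7.28% and 5.99% at 0.0005 μM to 4.28% and 4.34% at 0.5 μM.

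The less abundant metallothioneins gave smaller or noisier differences. MT1F, another MT1 isoform, was at 4.31 and 6.80 CPM in C1, 4.14 and 4.86 CPM in C2, 5.90 and 6.65 CPM at 0.0005 μM, 6.10 and 5.55 CPM at 0.005 μM, 5.76 and 4.31 CPM at 0.05 μM and 5.30 and 6.05 CPM at 0.5 μM. As for MT1E, 7 of 8 treated samples were above both C2 samples, and all were inside the untreated range. The log2 fold for all doses against C2 was 0.34 (SE 0.18, adjusted p = 0.274), and the exact permutation p of 8 treated against 2 C2 samples was 0.0444, where 0.0222 is the smallest p that design can give.

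MT1G had few counts in any sample. Raw counts were 3 and 4 in C1, 7 and 7 in C2, 12 and 10 at 0.0005 μM, 19 and 13 at 0.005 μM, 13 and 9 at 0.05 μM and 9 and 11 at 0.5 μM. On the CPM scale, 7 of 8 treated samples were above all 4 untreated samples, a pattern whose share over all genes is not given here either. For the 8 treated against the 4 untreated samples the log2 fold was 0.79 (SE 0.35, adjusted p = 0.109), and the exact permutation p was 0.00606 (smallest possible 0.00202). Without C1 replicate 1, the library with 3 counts, the log2 fold was 0.48 (adjusted p = 0.385). Against C2 alone the log2 fold of all doses was 0.46 (SE 0.45, adjusted p = 0.562).

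SLC30A1 was lower in the 8 treated samples than in the 4 untreated samples of both days, but was not called against C2 alone. It measured 60.3 and 46.0 CPM in C1 and 50.2 and 43.9 CPM in C2, and 43.0 and 38.9 CPM at 0.0005 μM, 39.4 and 41.4 CPM at 0.005 μM, 43.3 and 42.8 CPM at 0.05 μM, and 40.7 and 40.8 CPM at 0.5 μM. All 8 treated samples were below all 4 untreated samples, a pattern shown by 5.77% of all genes tested, although the gap between the groups was small (43.3 against 43.9 CPM). The 8 treated against the 4 untreated samples gave a log2 fold of -0.27 (SE 0.09, adjusted p = 0.0349), and the exact permutation p was 0.00202, the smallest that design allows. SLC30A1 was the 1 member called of 6 in that comparison, in which 24.5% of all 23645 genes were called and 11.5% were called lower. Genes with transcripts of 600 nt or more and a mean of at least 5 CPM had a median of -0.14 there. Of 7 other zinc exporters and efflux genes tested, 3 were also called lower and 6 were below 0. Over 20 alternatives the adjusted p of SLC30A1 ran from 0.00933 to 0.186 and the call held in 14. Without C1 replicate 1 the log2 fold was -0.17 (adjusted p = 0.154), and without both C1 samples, which leaves only day 4, it was -0.18 (adjusted p = 0.186). The call was also lost without C2 replicate 1 (adjusted p = 0.0707), without 0.005 μM replicate 1 (0.0645) or replicate 2 (0.0596), and with no filter on low counts (0.104). Against C2 alone, all doses gave -0.19 (SE 0.12, adjusted p = 0.346). Its slope over the doses was close to 0 (0.0074 per 10-fold step, SE 0.03, adjusted p = 0.934).

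**Figure D3:**
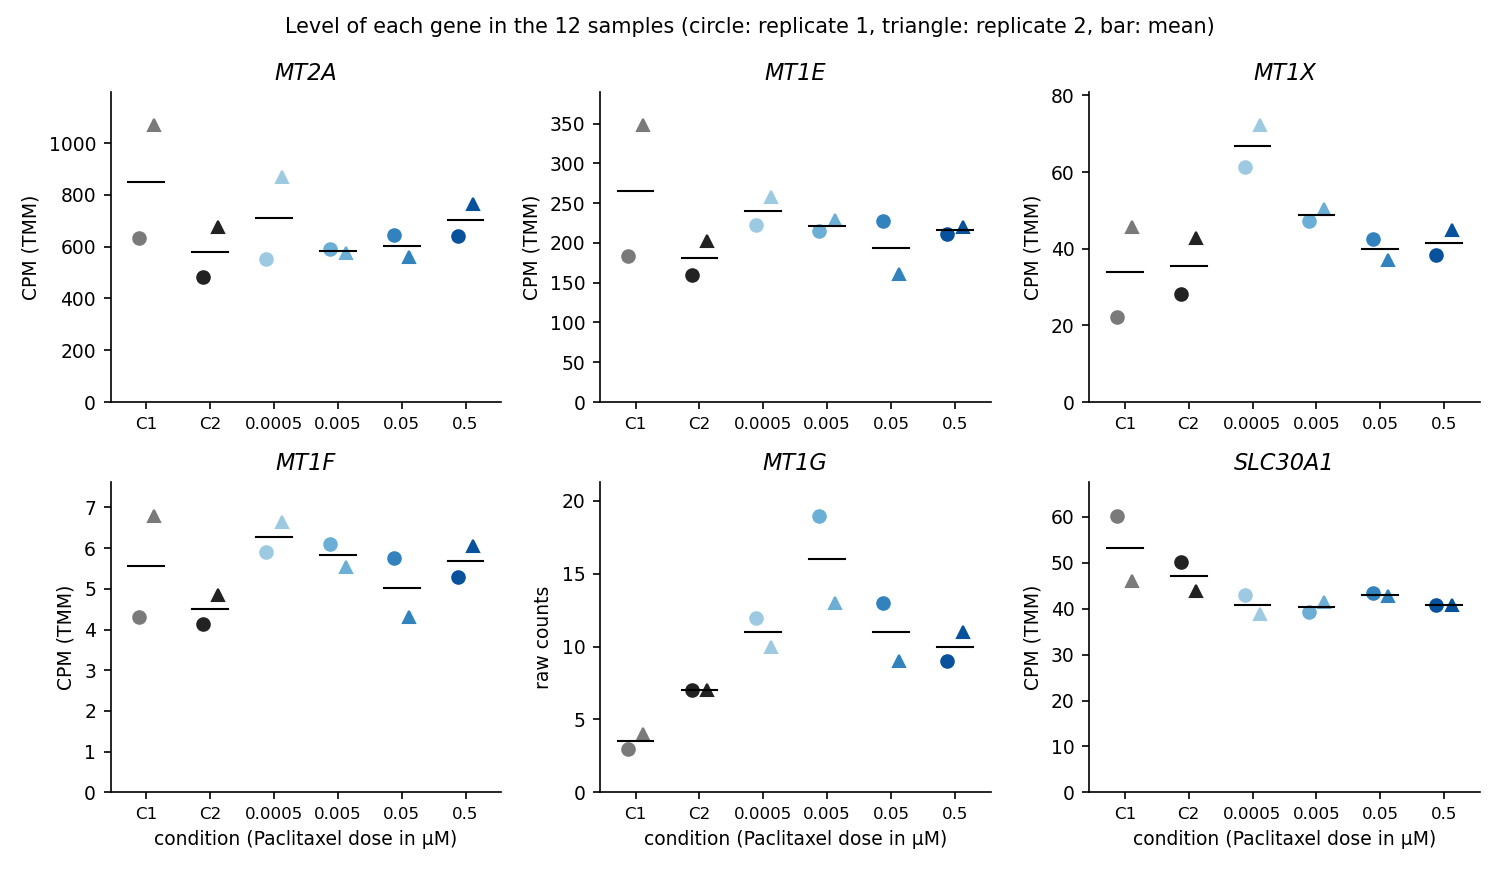
Level of 6 members in each of the 12 samples by condition, in CPM after TMM scaling (raw counts for MT1G). Circles are replicate 1, triangles replicate 2 and bars the mean of 2 samples. MT1X is highest at 0.0005 μM (61.2 and 72.2 CPM), and SLC30A1 lies at 38.9 to 43.3 CPM in the treated samples and at 43.9 to 60.3 CPM in the untreated ones.

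Across the doses no member was called against C2 by edgeR. At 0.005, 0.05 and 0.5 μM, 0 of 6 tested members were called, 0 had an unadjusted p under 0.05 and 0 were called by DESeq2, while 3.28%, 8.32% and 6.32% of all genes were called. For all doses against C2, 0 of 6 were called and 0 had an unadjusted p under 0.05, against 9.74% of all genes called, and DESeq2 also called 0. All 5 tested metallothioneins were above 0 and SLC30A1 below 0 at each of the 4 doses. However, a correction for the GC content and length of a gene's merged exons changed several signs. With it, MT2A and MT1E turned negative at the 3 higher doses, MT1X at the 2 highest and MT1F at 0.05 μM. The 4 contrasts share the same C2 samples. The median log2 fold of the 6 tested members for all doses was 0.30, beside 0.00 for all genes tested. The 8 treated against the 4 untreated samples gave a median of 0.09 for the members and -0.01 for all genes, with MT1E at -0.03 (SE 0.17), MT2A at -0.13 (SE 0.18) and MT1F at 0.20 (SE 0.14). Without C1 replicate 2, MT1F was called at 0.36 (adjusted p = 0.0417, from 0.0417 to 0.643 over single samples left out), and without C2 replicate 1 it was at 0.11. MT1X was at 0.52 there (SE 0.20, adjusted p = 0.0708, exact permutation p = 0.0566), and passed the threshold without C1 replicate 2 (adjusted p = 0.0321) or C2 replicate 2 (adjusted p = 0.0490). For all doses against C2, MT1X was at 0.44 (SE 0.23, adjusted p = 0.254), with an adjusted p of 0.0221 without C1 replicate 1 and 0.0242 without C1 replicate 2. The value also moved with the C2 samples, to 0.17 without C2 replicate 1 (adjusted p = 0.882) and 0.76 without C2 replicate 2 (adjusted p = 0.184). In the same way MT1F was at 0.22 and 0.45, MT2A at -0.064 and 0.41 and SLC30A1 at -0.092 and -0.29 without C2 replicate 1 and replicate 2, respectively.

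**Figure D4:**
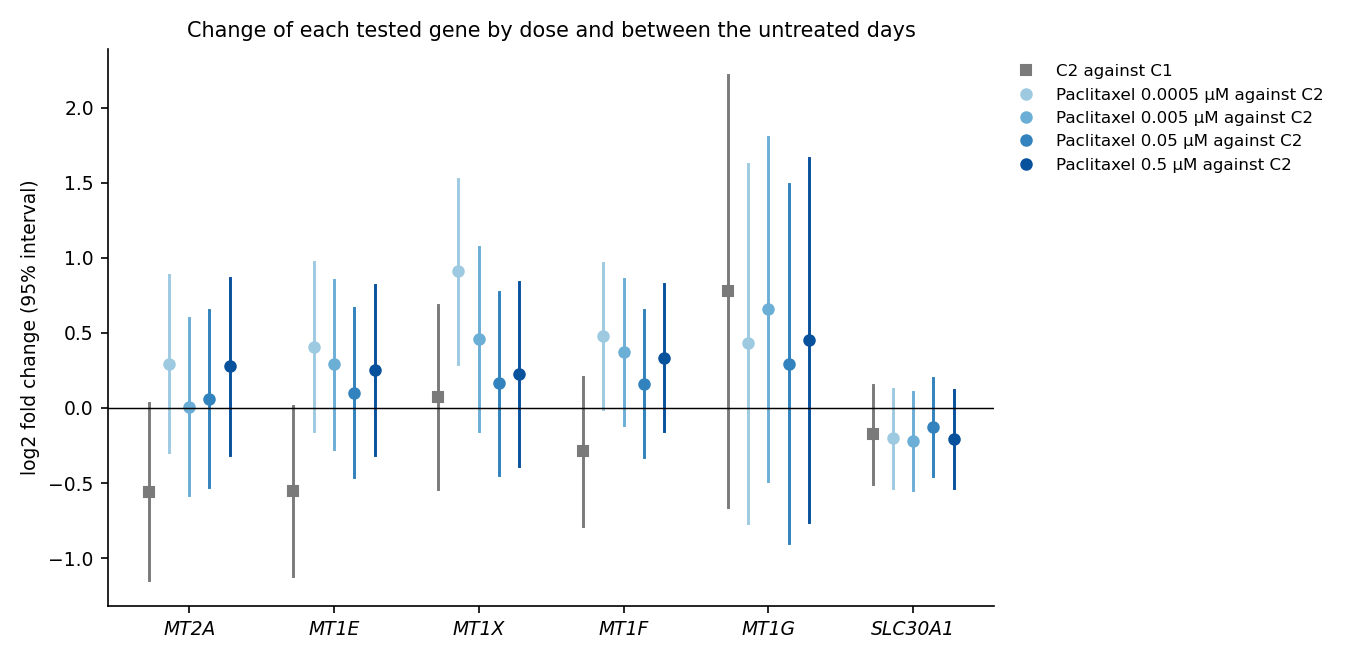
Log2 fold change of the 6 tested members with 95% intervals, for C2 against C1 (grey squares) and for each Paclitaxel dose against C2 (blue circles, darker with dose). MT1X at 0.0005 μM (0.91, adjusted p = 0.123) is the highest value among the doses, and SLC30A1 is below 0 at every dose.

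Between the untreated days the 2 C1 samples differed from each other in every well-expressed metallothionein. C1 replicate 2 was the highest of all 12 samples for MT2A, MT1E and MT1F, while C1 replicate 1 was the lowest for MT1X. For C2 against C1, MT2A gave a log2 fold of -0.56 (SE 0.27, adjusted p = 0.520) and MT1E -0.55 (SE 0.26, adjusted p = 0.509), and 0 of 6 members were called by edgeR, 0 had an unadjusted p under 0.05 and DESeq2 called 0, against 0.325% of all genes. Without C1 replicate 1, the fold of MT1E was -0.94 (adjusted p = 0.00558) and that of MT2A -0.89 (adjusted p = 0.0233), and without C1 replicate 2 they were 0.01 (adjusted p = 0.983) and -0.09 (adjusted p = 0.878). The direction of MT1X for C2 against C1, 0.07 (SE 0.28), also turned on which C1 sample was used, at -0.36 without replicate 1 and 0.71 without replicate 2.

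Short transcripts as a class were compared with longer ones. MT1E, whose transcript has 704 nt, is not in this class. Genes with transcripts of 200 to 600 nt and a mean of at least 5 CPM (261 genes) had a median log2 fold of 0.17 for all doses against C2, whereas 10719 genes of 600 nt or more had -0.11. The short class was at 0.060 without C2 replicate 1 and 0.27 without C2 replicate 2. For C2 against C1 the medians were -0.41 and -0.09, and the first turned on the C1 sample used, at -0.72 without C1 replicate 1 and 0.00 without C1 replicate 2. At 0.0005, 0.005, 0.05 and 0.5 μM the short transcripts were at 0.26, 0.13, 0.06 and 0.24, beside 0.91, 0.46, 0.16 and 0.23 for MT1X. The value at 0.005 μM was 0.020 without C2 replicate 1. Without C2 replicate 1 the values at 0.0005 and 0.5 μM were 0.16 and 0.12. The value at 0.05 μM changed sign without C2 replicate 1 (-0.068) or without replicate 1 of that dose (-0.20). With both untreated days as control the medians at the 4 doses in rising order were 0.057, -0.056, -0.15 and 0.035. Counts were also corrected for the GC content and length of all annotated exons of a gene merged, not for the transcript length above. That length was 914 nt for MT2A, 1052 nt for MT1E, 1727 nt for MT1X and 1852 nt for MT1F. The correction therefore did not treat these genes as short transcripts. With it, all doses against C2 gave -0.07 for MT2A, 0.05 for MT1E, 0.19 for MT1X and 0.10 for MT1F, and the sign of MT2A turned. At 0.05 μM the corrected values of MT1E (-0.12), MT1F (-0.10), MT1X (-0.10) and MT2A (-0.17) were all below 0. The median of all genes then shifted as well, to -0.088 for all doses, and that of the short class was -0.036 for all doses, and 0.23, -0.19, -0.096 and -0.042 at the 4 doses in rising order. With the correction MT1X was at 0.77 at 0.0005 μM (adjusted p = 0.114) and its slope was called at -0.28 (adjusted p = 0.0190). SLC30A1, whose transcript is long, was called at -0.30 (adjusted p = 0.0252) for 8 treated against 4 untreated samples. The corrected median of all genes in that comparison was -0.10. The part of transcript length in the values of the metallothioneins was not tested.

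**Figure D5:**
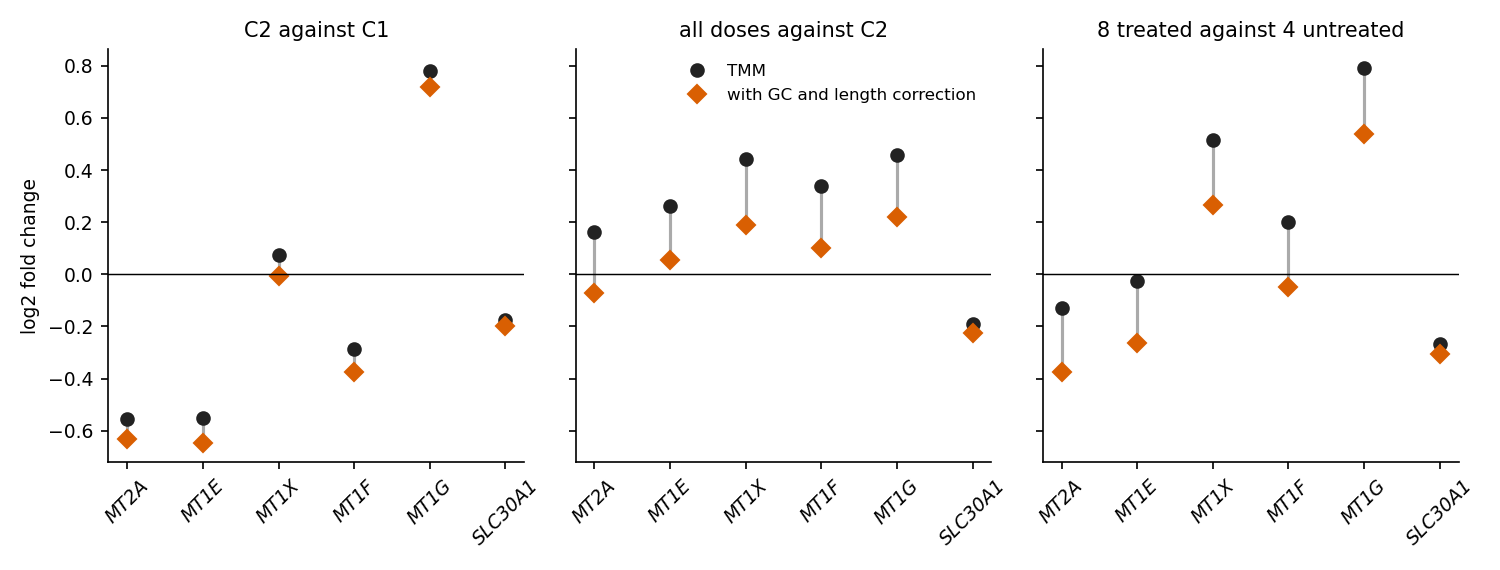
Log2 fold change of the 6 tested members in 3 comparisons with TMM scaling alone (black circles) and after correction for GC content and merged exon length (orange diamonds). The correction lowers the metallothioneins in treated samples, for example MT2A from 0.16 to -0.07 for all doses against C2, and moves SLC30A1 little.

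The other metallothionein rows were far lower or followed the same picture. Of 15 listed, 14 matched a row, 12 had counts and 5 passed the filter, and 0 of 5 were called for all doses against C2 by edgeR (0 at an unadjusted p under 0.05). MT1A, an MT1 isoform in the same cluster, was at 3.36 to 7.70 CPM with a log2 fold of 0.10 (SE 0.23). The pseudogenes MT1XP1 (0.53, SE 0.44), MT1JP (-0.22, SE 0.30), MT1DP (-0.24, SE 0.37) and MT2P1 (-0.02, SE 0.29) had a mean under 1 CPM, and reads of such copies and of the members cannot always be told apart. MT1B, MT1H, MT1HL1, MT1L, MT1P1, MT1P3 and MT3, the brain isoform, had 2 to 26 counts in all samples together, and MT1CP and MT4 had 0. The 6 members held 99.3% to 99.5% of the CPM of all metallothionein rows.

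Regulators and transporters of the same pathway are given for all doses against C2 unless stated. MTF1, the zinc sensor, was at 22.0 to 35.1 CPM with a log2 fold of -0.19 for all doses against C2 (SE 0.15, adjusted p = 0.475), and at -4.2e-05 without C2 replicate 1 and -0.36 without C2 replicate 2. Among 11 tested genes for MTF1, its partners and other activators, 1 was called higher and 1 lower (9.74% of all genes were called in either direction). NR3C1, the glucocorticoid receptor, was at 0.41 (SE 0.10, adjusted p = 0.0267) and was called in 10 of 20 alternatives (adjusted p from 0.000167 to 0.218). That call was lost with no filter, without either C2 sample and without 7 of the 8 treated samples in turn. KAT2B, an acetyltransferase, fell by 0.50 (SE 0.10, adjusted p = 0.0113). HIF1A, the hypoxia-inducible factor, was at -0.32 (SE 0.12, adjusted p = 0.120), and at -0.13 and -0.50 without C2 replicate 1 and replicate 2. Among 7 tested zinc exporters and efflux genes other than SLC30A1, 1 was called lower, SLC30A9, at -0.41 (SE 0.12, adjusted p = 0.0491), and called in 6 of 20 alternatives (adjusted p from 0.00219 to 0.340). That call was lost with RLE scaling, other filters, the replicate block and without any 1 C2 or treated sample. SLC30A4, a vesicular zinc transporter, was at -0.46 (SE 0.14, adjusted p = 0.0581). None of 13 tested zinc importers was called (2 had an unadjusted p under 0.05), with SLC39A13 at -0.40 (SE 0.13, adjusted p = 0.0642). DESeq2 gave SLC30A4 and SLC39A13 an adjusted p of 0.0363 and 0.0409. More of these genes were called for 8 treated against 4 untreated samples, where 24.5% of all genes were called and 11.5% were called lower. There 3 of the 7 zinc exporters were called lower, with 6 below 0. Of the 11 regulators 1 was called higher and 3 lower, and of 12 tested importers 1 was called lower.

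Counts in the other metal-handling and stress lists are to be read against the 9.74% of all genes called for all doses against C2. That share counts both directions, and 57.9% of those calls were higher. Of 12 copper genes 1 was called lower, a share near that background, the copper exporter ATP7B at -0.63 (SE 0.18, adjusted p = 0.0444). It was called in 10 of 20 alternatives (adjusted p from 0.0019 to 0.479), and lost on leaving out any 1 C2 or treated sample. Of 14 iron genes 2 were called higher, both ferritin chains, the light chain FTL at 0.70 (SE 0.13, adjusted p = 0.00736) and the heavy chain FTH1 at 0.79 (SE 0.18, adjusted p = 0.0209). FTH1 was 0.52 after correction for GC content and length (adjusted p = 0.0829). Of 14 targets of NRF2, the antioxidant response factor, 3 were called higher, among them the heme oxygenase gene HMOX1 at 1.85 (SE 0.14, adjusted p = 1.90e-05) and OSGIN1 at 1.04 (SE 0.19, adjusted p = 0.0071). The third, AKR1B10, an aldo-keto reductase, was named after its values were seen and was at 2.03 (SE 0.29, adjusted p = 0.0018) with a mean of only 0.947 CPM. NQO1, a quinone reductase in the same list, was at 0.20 (SE 0.15, adjusted p = 0.416), and ran from 0.00019 to 0.22 over 20 alternatives.

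Of 11 tested glucocorticoid targets 1 was called lower, again near the 9.74% of all genes called, ANGPTL4 at -0.47 (SE 0.13, adjusted p = 0.0427), and at -0.26 without C2 replicate 1 and -0.66 without C2 replicate 2. On the dose slope 2 of the 11 were called lower (ANGPTL4 and KLF9, where 2.11% of all genes were). At 0.5 μM 2 were called lower (ANGPTL4 and SGK1), where 6.32% of all genes were called in either direction, 69.0% of them higher. For 8 treated against 4 untreated 2 were called lower (FKBP5 and TFCP2L1, where 11.5% of all genes were). KLF9 and TFCP2L1 were named after their values were seen. FKBP5, a classical glucocorticoid target, was at -0.48 for all doses against C2 (SE 0.14, adjusted p = 0.0550). Of 12 hypoxia targets 0 were called by edgeR, 3 had an unadjusted p under 0.05, and DESeq2 gave ADM, VEGFA and KDM3A adjusted p-values of 0.0276, 0.0242 and 0.0383. In other comparisons hypoxia targets were called. At 0.0005 μM 2 of 12 were higher (ADM and LOX), with all 12 above 0. There 2.34% of all genes were called in either direction, 79.6% of them higher. On the dose slope 5 were lower (CA9, EGLN3, LOX, NDRG1 and P4HA1, with 2.11% of all genes lower). For 8 treated against 4 untreated 3 were higher (ADM, KDM3A and VEGFA), with 24.5% of all genes called, 53.0% of them higher. For C2 against C1 3 were higher (CA9, LOX and NDRG1), with 0.325% called, 98.8% of them higher. For 0.5 against 0.0005 μM 2 were lower and 11 of 12 were below 0, with 0.412% called, 18.3% of them higher. LOX, EGLN3, NDRG1 and P4HA1 were named after their values were seen. Of 12 heat shock genes 5 were called lower, led by HSPA6 at -1.02 (SE 0.15, adjusted p = 0.00179), HSPA1B at -1.13 (SE 0.17, adjusted p = 0.00222), the cochaperone DNAJB1 at -0.72 (SE 0.11, adjusted p = 0.00222) and HSPA1A at -1.04 (SE 0.18, adjusted p = 0.0052). The fifth, HSPH1, named after its values were seen, was at -0.48 (SE 0.12, adjusted p = 0.0302). For 8 treated against 4 untreated samples 0 of the 12 were called by edgeR (3 at an unadjusted p under 0.05), 0 were called at 0.0005 μM (0 at an unadjusted p under 0.05), and on the dose slope 4 were called lower (DNAJB1, HSPA1A, HSPA1B and HSPA6). HSPA1A and HSPA1B are near-identical copies, so their counts are uncertain. Calls in these lists depended on the 2 C2 samples: of 13 called genes, which are those named in the pathway lists apart from AKR1B10 and HSPH1, 3 (HMOX1, HSPA1B and HSPA6) were called without C2 replicate 1, and 5 (these and DNAJB1 and KAT2B) without C2 replicate 2.

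Across the 12 samples, the genes of at least 5 CPM most like the mean profile of the tested metallothioneins were MT-TN, SSR4, LGALS1, FNTA and CFAP68 (Pearson r of log2 CPM from 0.95 to 0.96, of 11086 genes). For SLC30A1 they were DDX56, TELO2, NUP210, GRK2 and ADCY3 (r from 0.97 to 0.98). Among the members, r was 0.89 for MT1E and MT1F, 0.84 for MT1E and MT2A, -0.90 for MT1G and SLC30A1 and -0.82 for MT1X and SLC30A1. These values describe 12 samples that share conditions and scaling, and carry no test.

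The markers of the line were high, and luminal markers were mixed. VIM, CD44, CAV1, ANXA1, AXL and MSN, which mark mesenchymal-like lines, were at 237 to 1366 CPM in every sample, and the hormone receptor genes ESR1 and PGR and the epithelial cadherin gene CDH1 stayed under 0.5 CPM. The luminal keratins KRT8, KRT18 and KRT19 were present, at 110.1 to 505 CPM. Of the same list ERBB2 was at 26.6 to 52.4 CPM, FOXA1 at 5.25 to 9.29, EPCAM at 4.37 to 6.77 and GATA3 at 1.58 to 4.44 CPM. None of the 6 line markers and 9 tested luminal markers was called for all doses against C2 by edgeR (1 and 2 at an unadjusted p under 0.05). For 8 treated against 4 untreated samples 2 of the 6 line markers were called lower and all 6 were below 0. There 11.5% of all genes were called lower, and 0 of 8 tested luminal markers were called. Of 10 fibroblast markers the highest were COL1A1 (4.80 to 9.85 CPM) and PDGFRB (3.61 to 9.15 CPM), and the defining markers COL1A2, DCN and LUM were at 0 to 0.505 CPM. PDGFRA, COL3A1 and FAP were called higher for all doses against C2 at mean levels under 1 CPM, 3 of the 7 tested, where 9.74% of all genes were called. Their part in the metallothionein values was not tested.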

How the data were processed

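RNA sequencing of Matrigel cultures of MDA-MB-231 was analysed in 12 samples, 2 biological replicates per condition. The study's methods state a larger total, but the conditions and replicates they list are those of these 12 samples. The authors trimmed reads with Trimmomatic 0.39, checked them with FastQC 0.11.9, aligned them to GRCh37 with STAR 2.7.5, kept unique alignments and counted reads in exons with Rsubread. The deposited values are these integer counts per gene, neither normalized nor pooled. The strand setting and annotation release are not given in the sources used here.

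Counts were analysed in R 4.3.3 with edgeR 4.0.16 (TMM, filterByExpr on the 6 conditions, robust quasi-likelihood fit of all 12 samples, two-sided, Benjamini-Hochberg over all tested genes). The 8 treated against 4 untreated samples and the slope on log10 dose had fits of their own, and single members were also compared by exact permutation of samples. SE is the absolute log2 fold divided by the square root of F, and log2 CPM uses a prior count of 2. Alternatives were DESeq2 1.42.0, RLE scaling, other filters, no robust estimation, a replicate block, a GC content and length correction, fits on just 4 samples, C1 and C2 together as control and leaving out each sample; leaving out both C1 samples was added after the data were seen. The GC content and length correction used the merged exons of each gene. The procedures were tested on simulated counts.

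The members and the gene lists were chosen with earlier results of these data known. All members are named, with every other metallothionein that had counts, MTF1, FKBP5, HMOX1 and NQO1, and from each other pathway list at most 4 genes with the smallest p for all doses against C2 and a mean of at least 1 CPM. Only part of these is printed. Promoters come from RefSeq windows, which matched 3 members.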

Additional observations from a re-analysis of the deposited data

Results flagged for a closer look

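Gaps between samples were examined for 6 members in the 4 untreated and in the 8 treated samples, 12 groups in all, and chance alone flags about 1 in 20 such groups. MT1E in 0.05 μM replicate 2 (161 CPM) stood below the other 7 treated samples, with a gap that took 0.573 of the whole log2 range of the 8. MT1G in C1 replicate 1 (3 counts) stood below the other 3 untreated samples, with a gap of 0.881 of their range, at counts where a single read moves the value. The level of MT1X differed between doses, with a slope of -0.23 on the log2 scale per 10-fold dose (SE 0.05, adjusted p = 0.0172 by edgeR), and it was called under 13 of 15 alternatives.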

How the results depend on the processing

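Directions of members with values near 0 were the least stable. Of 1092 member values under alternatives, 63 had the other sign and 32 changed their side of the threshold. With the GC content and length correction the sign turned at 0.005 μM for MT1E (-0.037) and MT2A (-0.33), at 0.05 μM for MT1E (-0.12), MT1F (-0.10), MT1X (-0.10) and MT2A (-0.17), at 0.5 μM for MT1E (-6.6e-05), MT1X (-0.062) and MT2A (-0.028), for C2 against C1 in MT1X (-0.0074), for all doses in MT2A (-0.070), for 8 treated against 4 untreated in MT1F (-0.049), for the slope in SLC30A1 (-0.00096) and for 0.5 against 0.0005 μM in MT1G (-0.24). That correction moved the share of calls that were higher, over all genes, from 57.9% to 34.6% for all doses against C2 and from 53.0% to 34.6% for 8 treated against 4 untreated. With both untreated days as control it turned for MT2A at 0.005 μM (-0.27) and 0.05 μM (-0.22) and for MT1E at 0.05 μM (-0.18) and 0.5 μM (-0.024). Values of nearly 0 turned with DESeq2 (SLC30A1 slope, -0.00057), RLE (SLC30A1 slope, -0.00057; MT1G at 0.5 against 0.0005 μM, -0.00034), a mean count of at least 10 (MT2A slope, 0.00079; SLC30A1 at 0.5 against 0.0005 μM, 0.0031) and no filter (MT1G at 0.5 against 0.0005 μM, -0.00087). Without both C1 samples MT1E (0.28) and MT2A (0.17) turned for treated against untreated. The cause was not tested.

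The number of members called rose from 0 to 1 at 0.0005 μM with DESeq2, both untreated days as control, no filter and without both C1 samples, and to 2 in the 4 samples alone (MT1X, and MT1E with an adjusted p of 0.0453, from 0.0453 to 0.851 over its alternatives). It rose from 0 to 1 for all doses with no filter and without both C1 samples, and from 0 to 1 for 0.5 against 0.0005 μM with no filter, in the 4 samples alone and without both C1 samples. It fell from 1 to 0 for 8 treated against 4 untreated with no filter and without both C1 samples.

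Replicate numbers did not pair the samples: over 15 pairs of same-numbered samples the correlation of deviations ran from -0.30 to 0.36 and was over 0.1 in 6. With the replicate block 2 members in place of 1 were called for 8 treated against 4 untreated (MT1X joined, adjusted p = 0.0360), and near 0 the sign turned for MT1E in that comparison (0.00073), the MT2A slope (0.0035) and MT2A at 0.5 against 0.0005 μM (0.0050). A fit with both the block and the GC content and length correction was also run and then left out, since the numbers do not pair the samples.

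Leaving out 1 sample at a time gave 0 to 1 members called at 0.0005 μM, for all doses, for the slope and for 0.5 against 0.0005 μM, 0 to 2 for C2 against C1 and 0 to 3 for 8 treated against 4 untreated. The log2 folds then ran, for C2 against C1, from -0.94 to 0.015 in MT1E, -0.60 to 0.092 in MT1F, -0.36 to 0.71 in MT1X and -0.33 to 0.036 in SLC30A1; for 8 treated against 4 untreated, from -0.16 to 0.26 in MT1E and -0.28 to 0.12 in MT2A. At 0.05 μM they ran from -0.18 to 0.30 in MT1E, -0.071 to 0.33 in MT1F, -0.056 to 0.55 in MT1G, -0.11 to 0.49 in MT1X and -0.16 to 0.31 in MT2A. MT2A ran from -0.072 to 0.58 at 0.0005 μM, -0.22 to 0.26 at 0.005 μM, -0.064 to 0.41 for all doses, -0.059 to 0.11 for the slope and -0.31 to 0.34 for 0.5 against 0.0005 μM. MT1X at 0.5 μM ran from -0.046 to 0.55, MT1G from -0.11 to 0.020 for the slope and -0.28 to 0.28 for 0.5 against 0.0005 μM, and SLC30A1 from -0.0097 to 0.024 and -0.082 to 0.065 for the same.

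Over all genes, the number called ran over the alternatives from 144 to 2624 at 0.0005 μM (592 as reported), 85 to 3401 at 0.005 μM (827), 321 to 4843 at 0.05 μM (2100), 129 to 5046 at 0.5 μM (1596), 0 to 2682 for C2 against C1 (82), 237 to 5664 for all doses (2460), 3408 to 7961 for 8 treated against 4 untreated (5786), 123 to 1690 for the slope (789) and 6 to 1662 for 0.5 against 0.0005 μM (104); the lowest counts at the 4 doses and for all doses came without C2 replicate 1. MT1G rests on 117 counts and MT1M on 14 in all samples, which limits what a difference in them can show.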
